A study of Arabidopsis thaliana with 18 samples.

Results

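The 150 probe sets described here were those of 22746 non-control probe sets with the deepest transient dip at 48 h of low temperature (LT) in Arabidopsis leaves. They were chosen by a rule: for each probe set the log2 values of the 6 arrays at each time were averaged, the 48 h mean was subtracted from the lower of the 0 h and the 120 h mean, and the 150 largest values, called the dip, were kept. The differences between times were therefore used to choose the members, and the members' falls, returns and levels over time are given as a description without a test. Of the 150 probe sets, 69 were paired with a single gene, 1 with several genes and 80 were not listed in the probe annotation used here, and those are named by their probe set identifier. The 69 genes were distinct, and 11 of them carried a symbol beyond their locus number: LHCB4.2, LHCB4.3, NdhS, CHLM, HEME1, VTC4, GSTU18, CCL, CYP71B24, CYP71B28 and DRT100.

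The study compared the Columbia wild type (Col) with vte2, a mutant in homogentisate phytyltransferase that lacks tocopherols, at 0, 48 and 120 h of LT at 7°C, with 3 arrays in each of 6 groups. Both genotypes were 4 weeks old, were grown at 22°C in the light and 18°C in the dark before transfer, and were kept on the same 12 h light cycle during LT, so no group was left at the growth temperature as a control of the same age. Each array held RNA of the 9th to 11th oldest rosette leaves pooled from 3 plants, harvested 1 h into the light period, and the arrays are labelled as biological replicates. Values are log2 signals after robust multi-array averaging on the ATH1 array, where 1 unit is a 2-fold change. RNA came from whole leaves, so fewer cells of a type and less RNA per cell cannot be told apart.

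Leaves exposed to cold absorb light faster than their slowed metabolism can use it, and plants commonly lower the expression of antenna, chlorophyll synthesis and other chloroplast genes on transfer to cold and restore part of it as they acclimate. The antenna proteins of the LHCB family pass excitation energy to photosystem II, and the chloroplast NADH dehydrogenase-like (NDH) complex carries electrons around photosystem I. Tocopherols are lipid-soluble antioxidants made in the plastid envelope.

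Some arrays stood apart. Replicate 3 at 0 h differed from replicates 1 and 2 in both genotypes, with correlations between replicates from 0.937 to 0.991 in Col and from 0.936 to 0.971 in vte2 at 0 h, against 0.983 to 0.998 at the later times. It differed from the mean of the other 2 by more than 1 log2 unit in the same direction in both genotypes for 41 members (27.3%), 23 of them upward and 18 downward, against 6.99% of all non-control probe sets. At 120 h the genotypes are given as labelled. Of 77 probe sets called different between the genotypes at 48 h, 71 had the opposite sign at 120 h, and all 51 that were called at both times had opposite signs. The choice of the 150 members does not depend on which 120 h arrays were Col, because the rule averaged both genotypes.

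By median the members were well expressed before LT and lost most of their signal by 48 h, with 0 h levels from 4.96 to 13.29. Their median log2 level was 8.56 at 0 h, 6.30 at 48 h and 7.86 at 120 h, whereas the median over all non-control probe sets was 5.11, 5.14 and 5.12. The fall, the 0 h mean minus the 48 h mean, had a median of 1.96 (3.88-fold) and ran from 1.21 to 6.22. The return, the 120 h mean minus the 48 h mean, had a median of 1.44 (2.71-fold) and ran from 1.20 to 3.01. On the log2 scale the median member regained 74.9% of its fall by 120 h, with a range from 24.3% to 149%, the lowest share and the largest fall both being those of 260221_at, a probe set near background at 48 h. At 120 h 121 members still lay below their 0 h mean and 29 lay at or above it, and 15 had regained less than 50% of the fall. In 109 of the 150 members all 6 arrays at 48 h lay below all 12 arrays at the other times, as 4.83% of all non-control probe sets did, a separation that the rule itself favoured.

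**Figure D1:**
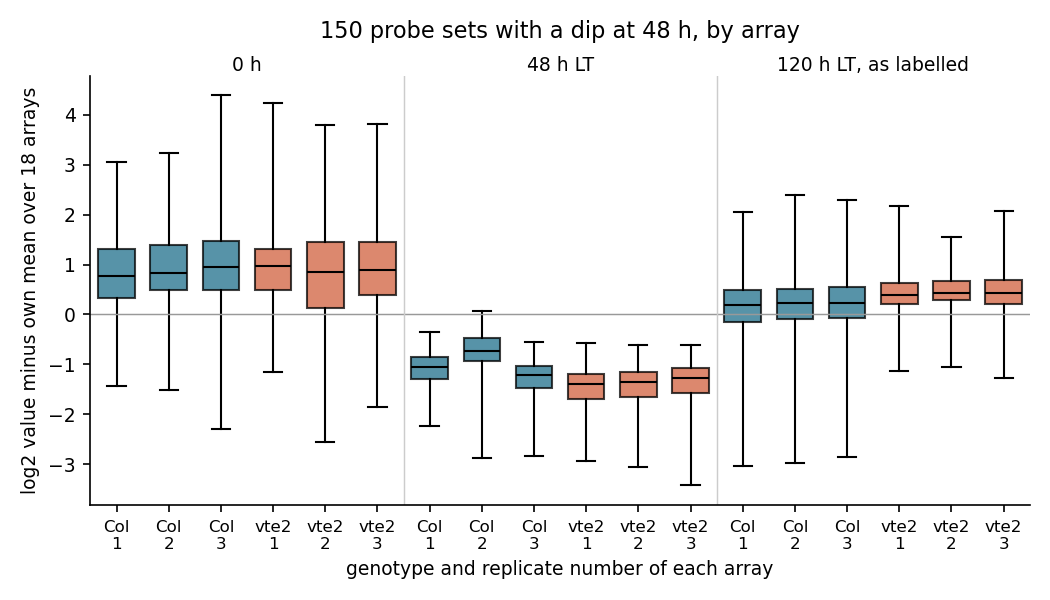
Each box shows the 150 members on 1 array as the log2 value minus the member's own mean over all 18 arrays (line, median; box, quartiles; whiskers, lowest and highest member), with the time of LT above and genotype and replicate number below. The 48 h medians lie between -1.39 and -0.72, with Col replicate 2 the highest, the 0 h medians between 0.76 and 0.97 and the 120 h medians between 0.19 and 0.44.

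The medians over the members followed this order on every array. The median deviation of the members from their own mean was 0.76 to 0.97 on the 0 h arrays, -1.06, -0.72 and -1.21 on the Col arrays at 48 h, and -1.39, -1.36 and -1.27 on the vte2 arrays at 48 h. At 120 h it was 0.19, 0.23 and 0.24 on the arrays labelled Col and 0.40, 0.44 and 0.44 on those labelled vte2. Col replicate 2 at 48 h was thus the shallowest of the 6 arrays at that time, and it was the highest of the 3 Col arrays in 122 members, against 39.9% of all non-control probe sets.

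**Figure D2:**
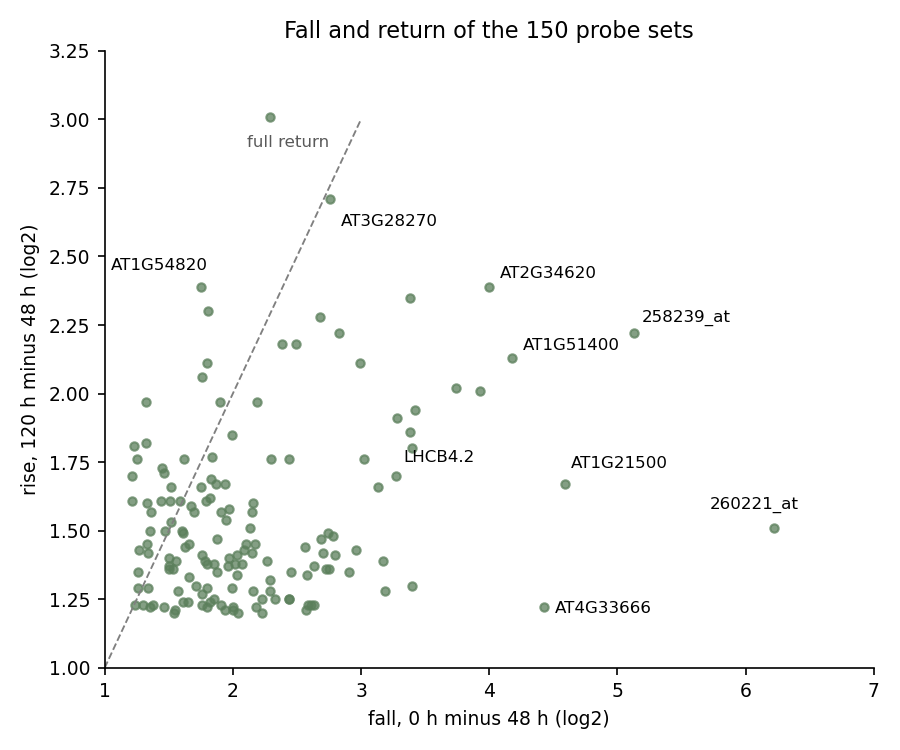
Each point is 1 of the 150 members, with the fall from 0 h to 48 h on the horizontal axis and the rise from 48 h to 120 h on the vertical axis, both as log2 differences of 6-array means. Points on the dashed line returned fully, and 260221_at, AT1G21500 and AT4G33666, far to the right, regained 24.3%, 36.4% and 27.6% of their fall, the first of them from a 48 h level near background.

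AT3G28270 had the deepest dip, 2.71 log2 units. Its Col arrays read 8.03, 8.21 and 9.27 at 0 h, 5.48, 6.12 and 5.20 at 48 h, and 8.46, 8.71 and 8.72 at 120 h. Its vte2 arrays read 8.49, 6.51 and 9.71 at 0 h, 5.63, 5.54 and 5.72 at 48 h, and 7.88, 8.29 and 7.88 at 120 h. All 6 arrays at 48 h lay below all others, and the 0 h arrays were widely spread, with both replicate 3 arrays the highest of their genotype; without these 2 arrays the dip was 2.20. AT2G34620 fell further, by 4.00 log2 units (16-fold), and regained 59.9% of that. Its Col arrays read 10.11, 10.12 and 8.86 at 0 h, 5.96, 6.09 and 6.11 at 48 h and 7.89, 7.96 and 7.87 at 120 h, and its vte2 arrays 10.50, 9.78 and 9.13, then 5.31, 5.20 and 5.81, then 8.26, 8.34 and 8.53. The 3 times did not overlap, and the 120 h arrays of both genotypes lay between the other times.

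Other named members with deep dips were AT1G22160 (2.28), AT1G07440 (2.22), AT1G52000 (2.18), AT1G51400 (2.13), AT3G23080 (2.11) and GSTU18 (2.02). The 25 deepest dips among members with a single gene ran down to 1.54, in AT3G14067. Among unlisted probe sets, 258239_at stood out by level as well as by change, with means of 12.17 at 0 h, 7.05 at 48 h (a fall of 34.9-fold) and 9.26 at 120 h. The largest difference between the 0 h and 48 h means was that of 260221_at, from 9.56 to 3.34, but 16.1% of all non-control probe sets had a lower 48 h mean, so this value lay near background and its fall and the share regained are only rough. Its 120 h mean of 4.85 hid a split between the labelled genotypes that is given below.

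The photosynthetic members combined high expression with large falls. LHCB4.2, an antenna protein of photosystem II, read 12.99, 13.01 and 12.62 in Col and 12.93, 13.09 and 12.52 in vte2 at 0 h. At 48 h it read 10.04, 10.18 and 9.78 in Col and 9.18, 9.20 and 9.17 in vte2. At 120 h the Col label covered 11.02, 11.02 and 10.91 and the vte2 label 11.58, 11.47 and 11.75. The times did not overlap: the mean was 9.65-fold lower at 48 h than at 0 h, and 52.1% of the fall was regained on the log2 scale. At 48 h all vte2 arrays lay below all Col arrays, and at 120 h the labelled order was the opposite.

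LHCB4.3, encoding a second isoform of the same antenna protein, had a lower level and a similar course. Its Col arrays read 10.38, 10.43 and 10.67 at 0 h, 7.98, 8.46 and 7.82 at 48 h and 8.42, 8.95 and 9.07 at 120 h. Its vte2 arrays read 10.61, 10.38 and 10.82, then 7.90, 7.85 and 7.51, then 9.56, 10.01 and 9.76. The mean fell by 2.63 log2 units and regained 52.3% of this, and 1 array labelled Col at 120 h lay just below the highest Col array at 48 h, so the later 2 times touched in Col. AT1G51400, annotated as a small photosystem II protein, showed the steepest fall of these genes, 18.2-fold. It read 12.63, 12.48 and 12.35 in Col and 12.50, 12.72 and 12.08 in vte2 at 0 h, 8.83, 8.87 and 8.44 against 7.78, 7.84 and 7.88 at 48 h, and 10.19, 10.20 and 9.98 against 10.74, 10.65 and 10.66 at 120 h as labelled. No time overlapped with another, and within each LT time the genotypes did not overlap either.

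**Figure D3:**
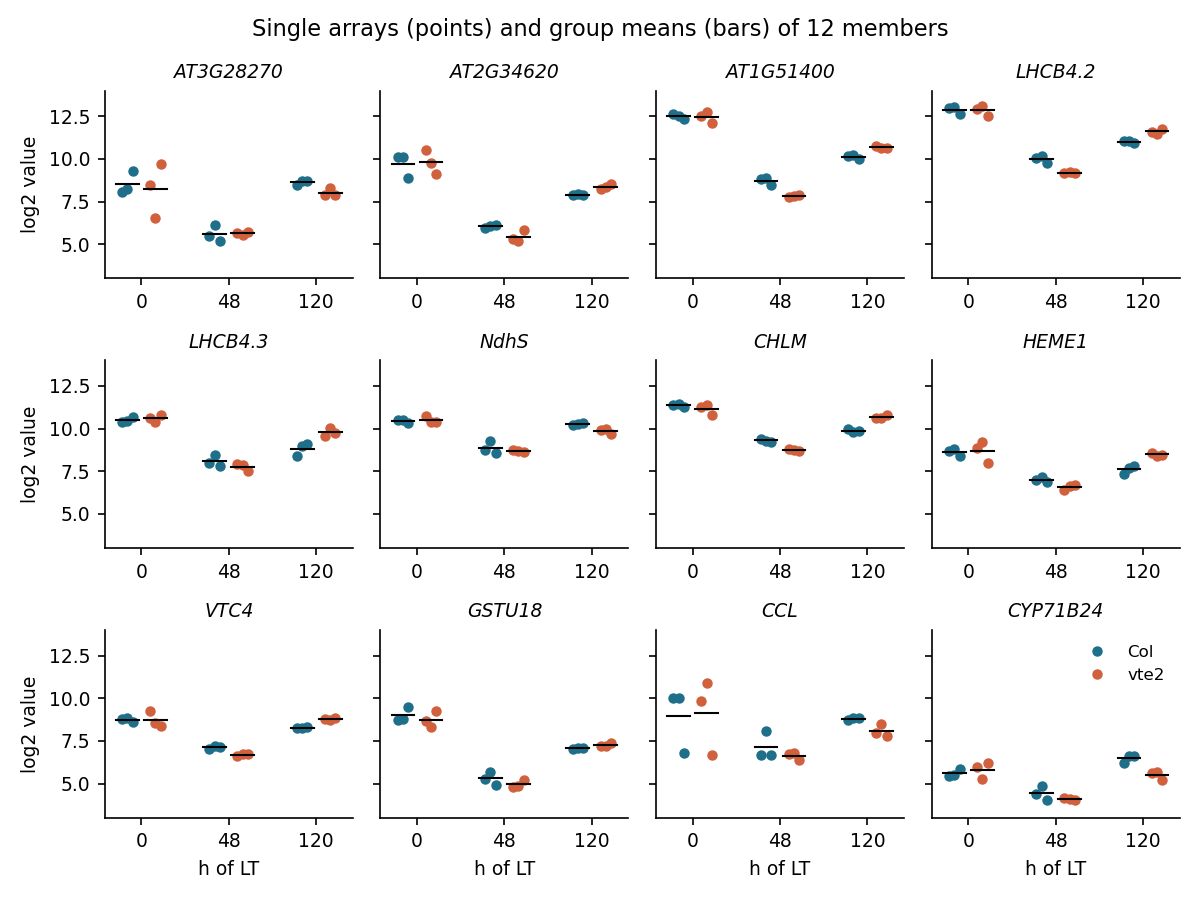
Log2 values of 12 members by hours of LT, each point 1 array (blue, Col; orange, vte2) and each bar the mean of 3 arrays; all panels share the axis from 3 to 14. LHCB4.2 drops from near 13 to 9.17 to 10.18 at 48 h, while CCL shows its 2 replicate 3 arrays at 0 h (6.78 and 6.68) at the level of 48 h.

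Other photosystem and antenna genes had the same shape at smaller size. Of a list of 33 nuclear photosystem and light-harvesting genes, 7 were measured by a probe set with a single gene, and all 7 had a positive dip, with a median of 0.64, against 44.8% and a median of -0.02 over all non-control probe sets. LHCB4.2 and LHCB4.3 were the 2 members among them. The 5 that were not members (LHCB4.1, PSAN, PSAE-1, PSBY and PSBW) all passed the test as lower at 48 h than at 0 h in Col and in vte2, as 16.2% and 17.2% of all probe sets did, and all passed as higher at 120 h than at 48 h in the arrays labelled Col and vte2, as 9.48% and 13.5% of all did (limma, Benjamini-Hochberg adjusted p under 0.05 over all 22810 probe sets). LHCB4.1, the third isoform, fell by 1.19 ± 0.12 (SE, n = 3 per group) in Col and by 1.53 ± 0.12 in vte2, with means of 12.85, 11.49 and 12.50 over the 3 times. PSAN, a small photosystem I subunit, fell by 1.21 ± 0.10 and 1.52 ± 0.10 and had means of 12.63, 11.26 and 11.90.

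In the means over both genotypes, most probe sets of plastid-encoded genes of the same complexes did not show this course. This split was drawn after the values were seen and is a description. The plastid probe sets varied in spread at 0 h, with replicate SDs in Col from 0.03 in psaB to 2.8 in psaA. Some differed by genotype at 0 h, by 3.05 ± 0.93 in psaA and 2.56 ± 0.45 in psbD (limma adjusted p = 0.362 and 0.145). From 0 h to 48 h, 3 of 10 plastid ndh genes were called lower in vte2 and 0 in Col (17.2% and 16.2% of all probe sets). Called higher were 1 in vte2 and 2 in Col (3920 and 3666 of all 22810). The pooled dips thus average genotypes with unlike courses. Whether the arrays measured plastid and nuclear transcripts alike was not tested. All 8 nuclear photosystem and antenna genes measured had a positive dip, with a median of 0.72, whereas 2 of 20 plastid photosystem genes had one, with a median of -0.29. The 8 include LHCB4.2 and LHCB4.3, which were chosen for their dip, and 6 that were not members. Over all non-control probe sets 44.8% had one. In the NDH complex, NdhS, the subunit that takes part in ferredoxin binding, was a member and NdhN and NdhL dipped by 0.73 and 0.67, whereas 1 of 10 plastid ndh genes had a positive dip, with a median of -0.22. NdhS read 10.52, 10.50 and 10.34 in Col and 10.72, 10.39 and 10.38 in vte2 at 0 h, 8.75, 9.25 and 8.55 against 8.74, 8.69 and 8.62 at 48 h, and 10.21, 10.28 and 10.31 against 9.92, 9.97 and 9.68 at 120 h. Its 48 h arrays lay below all others, the genotypes overlapped at 48 h, and the arrays labelled vte2 were the lower ones at 120 h, unlike those of the antenna members.

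**Figure D4:**
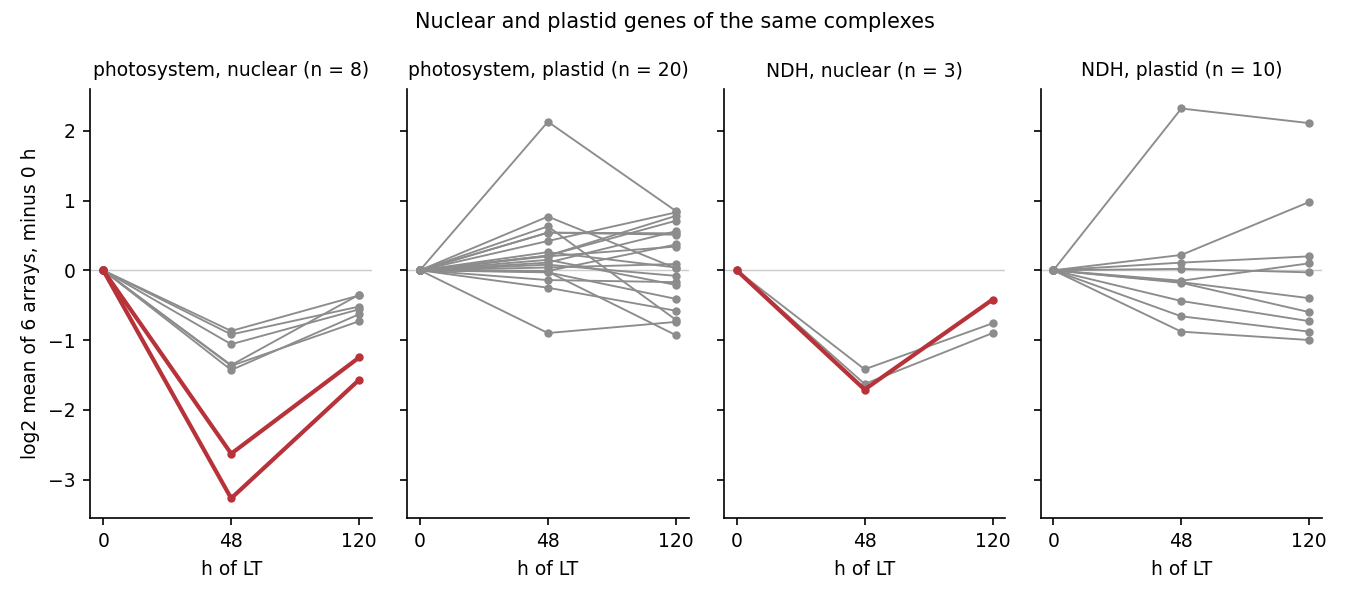
Log2 means of 6 arrays relative to 0 h for nuclear and plastid genes of the photosystems and of the NDH complex, with hours of LT on the horizontal axis; red lines are members of the 150 and grey lines are not. All 8 and all 3 nuclear genes dip at 48 h, the members among them by choice, while 2 of 20 and 1 of 10 plastid genes have a positive dip.

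CHLM and HEME1, enzymes of tetrapyrrole synthesis, were also members. CHLM, the methyltransferase that acts on magnesium protoporphyrin IX on the way to chlorophyll, read 11.35, 11.42 and 11.29 in Col and 11.24, 11.38 and 10.82 in vte2 at 0 h. At 48 h it read 9.39, 9.29 and 9.23 in Col and 8.79, 8.73 and 8.70 in vte2, and at 120 h 9.96, 9.79 and 9.83 under the Col label and 10.64, 10.59 and 10.82 under the vte2 label. No group overlapped another from 48 h onward, and the mean fall was 4.68-fold with 56.1% regained. HEME1, uroporphyrinogen decarboxylase of the branch shared by heme and chlorophyll, read 8.71, 8.78 and 8.37 in Col and 8.85, 9.20 and 8.01 in vte2 at 0 h, 6.97, 7.19 and 6.88 against 6.40, 6.66 and 6.72 at 48 h, and 7.34, 7.68 and 7.82 against 8.59, 8.42 and 8.44 at 120 h. Its fall was 3.61-fold, and at 48 h the vte2 arrays lay just below the Col arrays.

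The pathway as a whole was not uniform. Among 11 measured tetrapyrrole genes, a set gathered after the values were seen, 7 had a positive dip and the median was 0.44, against 44.8% of all non-control probe sets with one. CHLM and HEME1, chosen for their dip, are 2 of the 7. HEME2, the second uroporphyrinogen decarboxylase, came close to membership with a dip of 1.04 at rank 256, and PORB, a protochlorophyllide oxidoreductase, had a dip of 0.69, whereas HEMA2, a glutamyl-tRNA reductase, was higher at 48 h (7.78) than at 0 h (6.92) and 120 h (6.61).

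Members of metabolism outside the chloroplast membranes followed. VTC4, the L-galactose phosphate phosphatase of ascorbate synthesis, read 8.80, 8.84 and 8.62 in Col and 9.24, 8.53 and 8.40 in vte2 at 0 h, 7.05, 7.19 and 7.15 against 6.63, 6.74 and 6.75 at 48 h, and 8.28, 8.24 and 8.32 against 8.78, 8.73 and 8.85 at 120 h. It regained 88.7% of a 3.54-fold fall, and the arrays labelled vte2 at 120 h lay within the 0 h range. GME and GLDH, the other ascorbate genes measured, had no dip (-0.36 and -0.65). GSTU18, a tau class glutathione transferase, read 8.74, 8.81 and 9.48 in Col and 8.68, 8.32 and 9.26 in vte2 at 0 h, 5.30, 5.69 and 4.95 against 4.79, 4.88 and 5.21 at 48 h, and 7.04, 7.09 and 7.06 against 7.18, 7.23 and 7.38 at 120 h. Its 13.4-fold fall stood out in its family, in which it was the only member among 11 measured genes, with GSTU27 next at a dip of 0.75 and a median of 0.02.

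The cytochromes P450 CYP71B24 and CYP71B28 differed from the photosynthetic members in that their 120 h means passed the 0 h means. CYP71B24 read 5.47, 5.52 and 5.83 in Col and 5.99, 5.29 and 6.20 in vte2 at 0 h, 4.37, 4.86 and 4.05 against 4.19, 4.09 and 4.05 at 48 h, and 6.22, 6.63 and 6.60 against 5.61, 5.71 and 5.22 at 120 h. The arrays labelled Col at 120 h were above every other array, and the 48 h arrays were below every other array. CYP71B28 had means of 6.62, 5.29 and 6.88. With these 2 members counted, 9 of the 18 measured genes of the CYP71B group had a positive dip, with a median of -0.01. Both were close to the 44.8% and -0.02 over all non-control probe sets.

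Full returns were not limited to this group. AT1G54820 had means of 7.10, 5.35 and 7.75 at the 3 times (137% of the fall regained), AT1G68600 of 7.29, 5.53 and 7.59 (117%) and AT3G56080 of 5.99, 4.19 and 6.30 (118%). At the other end, AT1G21500 regained 36.4% of a 24-fold fall and AT4G33666 27.6% of a 21.6-fold fall. In AT4G33666 this was not the same in the labelled genotypes: its arrays read 6.07, 6.62 and 5.86 in Col and 5.27, 5.19 and 4.89 in vte2 at 48 h, whereas at 120 h the readings labelled Col were 5.67, 5.75 and 5.92 and those labelled vte2 were 7.79, 8.26 and 7.83. Arrays labelled Col thus showed no return and those labelled vte2 did.

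AT4G33666 was 1 of 6 members with no positive dip in the Col arrays taken alone as labelled, the others being 260221_at, AT5G48490, AT5G24490, 266656_at and AT1G55960. From the Col arrays alone the dip was positive in 144 members with a median of 1.14, and from the vte2 arrays alone it was positive in all 150 with a median of 1.68. The median fall was 1.77 in Col and 2.14 in vte2, and the median return as labelled 1.19 and 1.76. The labelled dip was deeper in vte2 in 127 members, against 51.9% of all non-control probe sets. With the labels exchanged at 120 h, the dip was positive in all 150 members in each genotype, with medians of 1.34 in Col and 1.5 in vte2 and returns of 1.4 and 1.58, and it was deeper in vte2 in 104 members, against 44.7% of all.

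At the rank limit the dip changed little from member to member. The members ranked 146 to 150 were AT2G19310 (1.21), AT1G80850 (1.21), 258434_at (1.20), AT3G07310 (1.20) and 256965_at (1.20), and the probe sets ranked 151 to 155 were 250842_at (1.20), 262809_at (1.20), AT4G12980 (1.20), AT1G15740 (1.19) and 257044_at (1.19). The falls ran from 1.54 to 2.23 in the former and from 1.78 to 2.27 in the latter.

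For some members the 0 h level rested on which arrays were averaged. CCL (CCR-like) read 10.04, 10.03 and 6.78 in Col and 9.82, 10.87 and 6.68 in vte2 at 0 h, and its replicate 3 arrays were as low as its 48 h arrays (6.66, 8.09 and 6.65 in Col and 6.71, 6.80 and 6.39 in vte2). AT3G23080 was lower in replicate 3 by 3.03 in Col and by 3.43 in vte2, with 0 h readings of 9.28, 9.26 and 6.25, and 9.44, 9.00 and 5.79. In both genes the other 0 h arrays lay above every LT array, so the dip was the same without replicate 3 (1.57 and 2.11), the 120 h mean being the lower side. In 258158_at and 259432_at the opposite held: replicate 3 read 9.41 and 9.15, and 8.42 and 8.36, against 3.92 to 4.55 and 3.04 to 3.47 in the other 0 h arrays. Without replicate 3 these 2 had no dip (-0.07 and -0.37), while the other 148 members kept a positive dip, with a median of 1.36 over the 150 against 1.4 with all arrays.

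The difference between genotypes within a time cancels in the 6-array means, so it was not used directly by the rule and was tested (vte2 minus Col, limma on all 18 arrays, adjusted p under 0.05 over all 22810 probe sets). A member without a return in the arrays labelled Col could pass the rule only through the arrays labelled vte2 at 120 h. Its difference at 120 h and its interaction were thus partly set by the choice. Before LT the members did not separate the genotypes: 0 of 150 were called, as 0.00877% of all probe sets were. An unadjusted p under 0.05 was found in 5 members, against 1947 of all 22810 probe sets. The median difference was -0.01, against 0.00 over all. At 48 h 7 of 150 were lower in vte2 and 0 were higher, against 0.123% and 0.215% of all probe sets. The difference was below 0 in 137 members, against 49.8% of all probe sets, and its median was -0.38, against 0.00 over all, with a range from -1.44 to 0.92. All 3 vte2 arrays lay below all 3 Col arrays in 58 members (8.34% of all probe sets) and above them in 3 (7.83% of all).

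The size of this shift moved with Col replicate 2 at 48 h. Without that array the median difference was -0.21, 113 members were below 0 (48.1% of all probe sets) and 1 member was called. The share of all probe sets called also fell, from 0.338% to 0.167%. Without any other single array at 48 h the median stayed between -0.48 and -0.35. Leaving out Col replicate 1, vte2 replicate 1, 2 or 3 also left 1 or 2 calls (0.14% to 0.162% of all probe sets). The count of 7 calls also dropped to 3 without either Col replicate 2 or vte2 replicate 1 at 120 h (0.215% and 0.206% of all probe sets).

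The 7 members called lower in vte2 at 48 h were AT5G24490, AT1G51400, LHCB4.2 and the unlisted 263867_at, 259366_at, 252430_at and 255365_at, with differences from -1.22 to -0.69. The 3 named genes were among those the study had picked from these same arrays. The limma fit used here called 28 probe sets as lower, which is also the number of repressed genes that the study listed. The 4 unlisted probe sets therefore probably belong to that list too. Each matched 1 entry there by difference and adjusted p. For 263867_at this was AT2G36830, a major intrinsic protein, and for 259366_at AT1G13280, an allene oxide cyclase. For 252430_at it was AT3G47470, the chlorophyll a-b binding protein CAB4, and for 255365_at AT4G04040. The match is by value only, since the annotation used here did not name them. The direction of all 7 is thus not independent evidence. AT5G24490, annotated as a putative ribosomal protein of the small subunit, read 8.95, 8.69 and 8.37 in Col and 7.39, 7.49 and 7.45 in vte2 at 48 h, a difference of -1.22 ± 0.22 (SE, n = 3 per group; limma adjusted p = 0.0298). The corresponding differences were -0.88 ± 0.15 in AT1G51400 (limma adjusted p = 0.0188) and -0.82 ± 0.15 in LHCB4.2 (limma adjusted p = 0.029). In 263867_at, with Col readings of 8.15, 8.01 and 7.86 and vte2 readings of 6.90, 7.20 and 6.88, it was -1.01 ± 0.12 (limma adjusted p = 0.00119). Each of the named 3 missed the threshold without any 1 of Col replicates 1 and 2 or vte2 replicates 1, 2 and 3 at 48 h (limma adjusted p from 0.071 to 0.156).

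At 120 h, as labelled, 26 of 150 members were higher in vte2 and 2 were lower, against 3.44% and 3.09% of all probe sets, and the median difference was 0.23, against 0.01 over all. Without 1 of the 6 arrays of that time 15 to 19 members were called in place of 28 (15 without Col replicate 1 or vte2 replicate 1 or 3, and 17 without Col replicate 2 or 3), against 3.32% to 4.88% of all probe sets. All 3 arrays labelled vte2 lay above all 3 labelled Col in 80 members (18.5% of all probe sets) and below them in 31 (18.2%). Of the named genes, the largest called differences were in AT5G48490 (3.47 ± 0.94, limma adjusted p = 0.0397), AT4G33666 (2.18 ± 0.38, limma adjusted p = 0.00241), AT5G16030 (1.94 ± 0.34, limma adjusted p = 0.00264), AT5G24490 (1.77 ± 0.22, limma adjusted p = 0.000263) and AT1G21500 (1.61 ± 0.32, limma adjusted p = 0.0062).

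These were members with little or no return in the arrays labelled Col. Those with no return there, such as AT5G24490, passed the rule through the arrays labelled vte2. Their difference at 120 h is therefore a description. AT5G24490 read 8.40, 8.58 and 8.61 under the Col label and 10.28, 10.28 and 10.35 under the vte2 label, so that the former stayed within the Col range of 48 h. AT5G16030 read 6.82, 7.03 and 6.98 against 8.84, 8.92 and 8.90, and AT1G21500 read 6.39, 6.38 and 6.46 against 8.09, 7.86 and 8.11. AT5G48490 read 5.41, 6.04 and 6.06 against 9.69, 8.65 and 9.58, with 0 h readings that ranged from 6.18 to 11.27, so its SE was the largest of those named, and its call was lost without any 1 array at 120 h or any 1 of 5 arrays at 48 h.

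The named antenna, photosystem II and tetrapyrrole members were higher in vte2 at 120 h as labelled. The paper describes groups of LT-repressed genes whose loss was stronger and lasted longer in vte2 than in Col. LHCB4.2, AT1G51400 and AT5G24490 are on its repressed list, but their groups were not known here. Their labelled 120 h values ran the other way, above Col, and the 120 h labels were not checked. LHCB4.3 differed by 0.96 ± 0.20 (limma adjusted p = 0.00859), LHCB4.2 by 0.62 ± 0.15 (limma adjusted p = 0.0202), AT1G51400 by 0.56 ± 0.15 (limma adjusted p = 0.0365), CHLM by 0.82 ± 0.12 (limma adjusted p = 0.00078) and HEME1 by 0.87 ± 0.23 (limma adjusted p = 0.0352). AT5G02160 (0.96 ± 0.23), AT5G27290 (0.50 ± 0.14) and DRT100, named for DNA damage toleration (1.5 ± 0.42), were also called higher, with limma adjusted p of 0.0187, 0.0394 and 0.0451. The call of DRT100 was lost without any 1 array at 48 h or 120 h or Col replicate 2 at 0 h, and that of AT5G02160 without Col replicate 1 or 2 or vte2 replicate 1 or 3 at 120 h. VTC4 was at 0.51 ± 0.16 with a limma adjusted p of 0.0751. CYP71B24 was the only named member called lower in vte2 as labelled (-0.97 ± 0.23, limma adjusted p = 0.0209), a call that was lost without Col replicate 2 or 3 or vte2 replicate 1 or 3 at 120 h (limma adjusted p from 0.0561 to 0.115). The unlisted 253550_at, with readings of 9.31, 9.31 and 9.27 against 7.50, 7.95 and 7.74, was the other (-1.57 ± 0.18, limma adjusted p = 0.000102). The largest difference was that of the unlisted 260221_at, which read 2.89, 2.95 and 3.07 in arrays labelled Col, below its Col values at 48 h (4.66, 3.69 and 3.08), and 6.98, 6.44 and 6.78 in those labelled vte2 (3.76 ± 0.38, limma adjusted p = 4.07e-05).

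**Figure D5:**
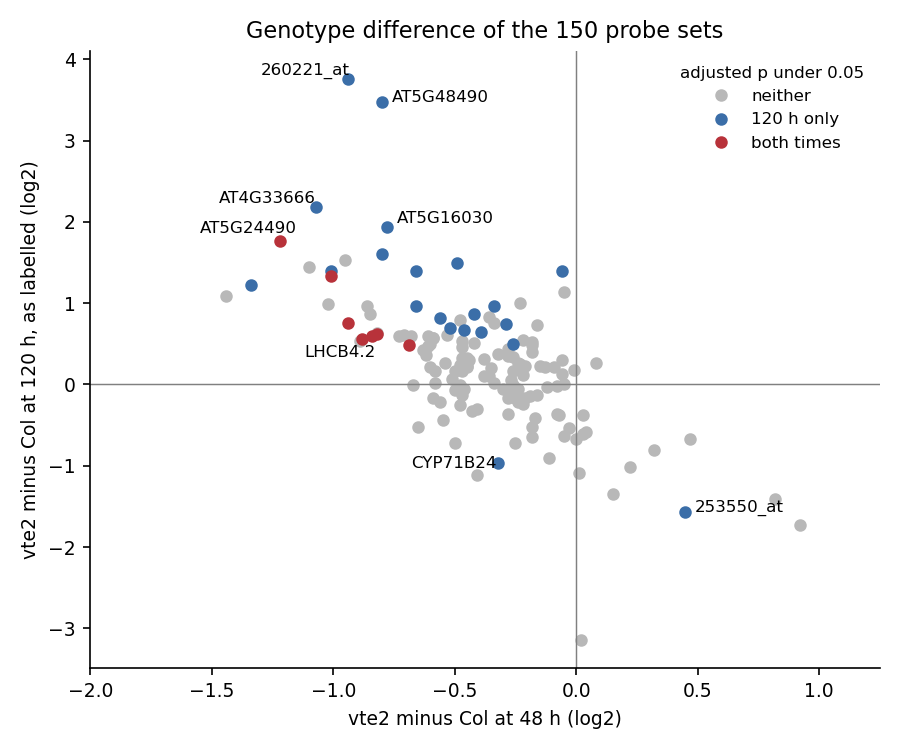
Each point is 1 of the 150 members, with the vte2 minus Col log2 difference at 48 h on the horizontal axis and that at 120 h, as labelled, on the vertical axis; red points were called by limma at both times (7) and blue points at 120 h alone (21). Most points (97) lie in the upper left, lower in vte2 at 48 h and higher at 120 h as labelled.

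The sign of the difference changed between the LT times in most members. In 97 members (64.7%) vte2 was lower at 48 h and higher at 120 h as labelled, a combination found in 31.9% of all non-control probe sets. In 40 members vte2 was lower at both times (18% of all), in 12 higher then lower (28.9% of all) and in 1 higher at both (21.2% of all). The change of the genotype difference from 48 h to 120 h was tested as an interaction: 30 members were called upward and 1 downward, against 3.32% and 2.59% of all probe sets, and the median change was 0.63, against 0.00. All 7 members called at 48 h were among them. The calls include members without a return in the arrays labelled Col, such as AT4G33666, whose change was partly set by the rule. With the genotype labels exchanged at 120 h, 0 of 150 members were called in this interaction, as 0.153% of all probe sets were, and the median was 0.20.

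The change from 0 h to 48 h was less clear. In that interaction 0 of 150 members were called by limma, as 0.0526% of all probe sets were. An unadjusted p under 0.05 was found in 24 members, against 1683 of all 22810 probe sets, and the median was -0.40, against 0.00 over all. The SE of the interaction had a median of 0.38 over the members. Without both replicate 3 arrays at 0 h, 12 members were called downward and 3 upward, as 3.35% of all probe sets were in either direction.

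For comparison, 2 sets of the same size were ranked by other shapes. The 150 probe sets with the largest sustained fall shared 8 members with those described here and had a median fall of 2.66 and a median return of 0.15. At 48 h their median genotype difference was -0.12, with 3 called lower in vte2 (0.123% of all probe sets) and 100 of 150 below 0 (49.8% of all). At 120 h as labelled it was 0.52, with 31 called higher (3.44% of all). The 150 probe sets with the largest transient peak at 48 h had a median genotype difference of 0.57 at 48 h. Of these, 136 were above 0 (50.2% of all probe sets) and 3 were called higher (0.215% of all). At 120 h as labelled their median was -0.55, with 22 called lower (3.09% of all) and 1 higher (3.44% of all). The difference between these sets and the members was not tested.

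The measured genes of other groups on the lists held no member. Several of these lists were thinly measured, with 1 of 22 circadian clock genes and 0 of 17 aquaporins. The 80 unlisted members could also hold genes of these groups, so their absence was not shown. In the cold response list, 7 genes were measured and none had a positive dip, with COR15A at means of 10.15, 13.35 and 13.04 and COR15B at 7.62, 12.35 and 11.83, both protective proteins of the chloroplast stroma. DFR, dihydroflavonol reductase of anthocyanin synthesis, had means of 4.29, 9.77 and 9.51. Of the leaf markers, RCA, Rubisco activase, was the only gene of 5 measured, with means of 13.47, 12.83 and 13.30 and a dip of 0.48, and of 5 phloem markers SWEET11 alone was measured, at 10.79, 10.62 and 10.65, with a dip of 0.04. The marker lists for epidermis, xylem, root, seed and flower had no measured gene, so the part of cell composition in these values was not tested.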

How the data were processed

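The deposited series table holds log2 values of 22810 probe sets, 64 of them controls, on 18 ATH1 arrays; per the labels and the methods the authors made them by RMA in the affy package (background correction, quantile normalization and summary of perfect-match probes), in versions not given in the sources used here. RMA compresses differences near background, and quantile normalization forces 1 distribution on all arrays, so a shift of all genes would not be seen; array medians lay between 4.98 and 5.18. Arrays carry no read depth, and the 3 arrays per group limit the precision. Probe sets were named through the platform annotation and RefSeq symbols (TAIR10.1): 13513 with a single gene, 503 with several and 8794 not listed. No sequence was used.

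The 150 members were ranked as stated. Using limma 3.58.1 (R 4.3.3; lmFit, contrasts and eBayes), 1 mean per group was estimated over the 18 arrays; p-values were adjusted by Benjamini-Hochberg over all probe sets, with a threshold of 0.05, and the procedure was tested on simulated data. Members and lists were chosen with earlier results of these data known. Named were the 25 deepest dips with a single gene, the 5 probe sets on each side of the rank limit, up to 8 called members per genotype comparison with the largest differences, and members on a list; genes with a symbol and unlisted probe sets with extreme values were added after their values were seen. Alternatives were a replicate block, cyclic loess, median centring, no dimmest 40% of probe sets, array weights, a trended robust prior, only the arrays of the times compared, and leaving out arrays; those without the 120 h arrays and with 120 h labels exchanged were added after seeing the data. The mutated gene was not used to check the labels. A planned search of promoter motifs was not run.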

Additional observations from a re-analysis of the deposited data

Results flagged for a closer look

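In 31 of the 150 members the genotype difference at 120 h as labelled differed from that at 48 h by limma's test of the interaction (adjusted p under 0.05), as it did in 5.91% of all probe sets. Among named genes the largest changes, in log2 units, were in AT4G33666 (3.25 ± 0.53), AT5G24490 (2.99 ± 0.31), AT5G16030 (2.72 ± 0.48), AT1G21500 (2.42 ± 0.45), AT5G02160 (1.63 ± 0.32), LHCB4.2 (1.44 ± 0.21), AT1G51400 (1.44 ± 0.21) and CHLM (1.38 ± 0.17), each with vte2 below Col at 48 h and above it at 120 h. In each of the 8 the 3 arrays labelled vte2 at 120 h lay above the 3 labelled Col. The direction at 120 h rests on the labels of those 6 arrays. AT4G33666 and AT5G24490 had no return in the arrays labelled Col, so part of their change was set by the choice of members.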

How the results depend on the processing

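The choice of members shared at least 126 of 150 with the ranking under cyclic loess, median centring, medians of arrays and without both replicate 3 arrays at 0 h, but 86 from Col arrays alone and 84 from vte2 arrays alone; leaving out 1 array shared 133 to 148. Counts of called members moved by over 1.5 times as follows. Without both replicate 3 arrays at 0 h they were 3 at 0 h, 26 at 48 h, 60 at 120 h, and 15 and 63 in the interactions of 48 h with 0 h and of 120 h with 48 h, against 4.57%, 1.49%, 13.9%, 3.35% and 13.3% of all probe sets. With array weights they were 39 at 48 h, 82 at 120 h, and 1 and 82 in the interactions (4.21%, 26.5%, 0.513% and 23.9% of all). With only the arrays of the times compared they were 89 at 120 h and 76 in the later interaction (23.9% and 18.1% of all). Without the 120 h arrays 1 member was called at 48 h (0.0921% of all). Leaving out 1 array gave 0 to 1 at 0 h, 1 to 10 at 48 h, 15 to 39 at 120 h, 0 to 6 in the earlier and 27 to 45 in the later interaction. The shares of all probe sets called in these fits ran from 0% to 2.59%, 0.14% to 0.64%, 3.32% to 8.54%, 0.0263% to 1.36% and 4.05% to 7.84%. At 0 h the single call needed the Col or the vte2 replicate 3 array to be left out (1.53% and 2.59% of all called). The earlier interaction had 4 and 6 calls without the Col or the vte2 replicate 3 array at 0 h (1.36% and 0.837% of all). It had 2 without Col replicate 3 at 48 h (0.197% of all). At 120 h the counts were 15 to 19 without 1 of the arrays of that time (3.32% to 4.88% of all). Median centring, cyclic loess, the filter on dim probe sets and the trended prior left all 5 counts within 1.5 times. The cause of these moves was not tested.

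Replicate numbers were shared by the genotypes, but same-number arrays correlated in their deviations by 0.397 to 0.791 at 0 h, 0.054 to 0.302 at 48 h and -0.151 to 0.0096 at 120 h, so the numbers did not pair the samples throughout. With the replicate number as a block within each time 0 members were called at 0 h, 17 at 48 h (16 lower), 54 at 120 h (42 higher), and 2 and 57 in the interactions, against 0.693%, 11.4%, 0.11% and 10.8% of all probe sets at the last 4.

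With the genotype labels exchanged at 120 h, 28 members were called there, 26 of them lower in vte2, and 0 in the later interaction. The differences at 120 h then were -3.47 in AT5G48490, -2.18 in AT4G33666, -1.94 in AT5G16030, -1.77 in AT5G24490, -1.61 in AT1G21500, -1.5 in DRT100, 0.97 in CYP71B24 and -0.96 in AT5G02160, and the interaction changed sign to -1.11 in AT4G33666, -0.55 in AT5G24490, -1.15 in AT5G16030, -0.81 in AT1G21500, -0.30 in AT5G02160 and -0.26 in CHLM, while LHCB4.2 and AT1G51400 dropped from 1.44 to 0.20 and 0.32 (limma adjusted p = 1.0 and 0.912). Apart from the results that changed sign, 442 results for named genes under the alternatives kept their direction and call. Another 57 kept the direction without the call, 13 of them for DRT100 and 12 for AT5G48490 at 120 h. The 57 include the interactions of LHCB4.2 and AT1G51400 with the labels exchanged.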
